A study of Homo sapiens with 13 samples.

Results

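Mediator is the large coactivator complex that carries signals from DNA-bound activators to Pol II at promoters. Its head and middle modules contact Pol II and the general transcription factors, its tail module is bound by activators, MED14 runs through the complex as a backbone, and a detachable kinase module holds CDK8 or CDK19, cyclin C, MED12 and MED13. The genes described here are the Mediator subunit genes, taken as every gene name made of MED and a number, with or without a final L. The rule found 30 of the 14575 gene names with reads, and 25 of these had enough reads to be tested among 9494 genes.

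The data are 3’ READS libraries, in which each read marks the 3’ end of 1 poly(A) RNA, from HEK293 Flp-in T-REx cells, a human embryonic kidney line. All cells carried an integrated pcDNA5 plasmid for an α-amanitin-resistant (Amr) Rpb1, the largest subunit of Pol II, which was wild-type in 5 libraries (WT) and had the R749H substitution in 4 (R749H). Pol II with this substitution elongates slowly. The sample titles name an Avitag on Rpb1 in both groups, whereas the source names give B10, and which of these the cells carried is not settled here. Per the labels, both lines received 2 μg/ml doxycycline for 24 hr and 2.5 μg/ml α-amanitin for 42 hr. The latter serves to inhibit endogenous Pol II. The methods of the study give a shorter induction before α-amanitin, with doxycycline continued during the 42 hr of α-amanitin. Each group is 1 cell line, so the substitution and any other difference between the lines cannot be told apart, and p-values measure the spread between libraries of those lines. Levels are RPM, reads per 1 M reads after scaling by TMM (trimmed mean of M-values). A read comes from the 3’ end of an RNA whatever its length, so RPM can be compared between genes without a correction for length. The methods of the study describe no removal of copies from PCR for these libraries.

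Depth ranged from 2479851 to 10135014 reads in WT and from 3863468 to 6475987 in R749H. R749H replicate 3 stood apart, where 6.60% of isoforms had 1 read only, compared with 30.05 to 36.2% elsewhere, and it held the highest R749H value for 11 of the 25 tested subunits and the lowest for 9. POLR2A, the gene of Rpb1, measured 84.7 ± 26.2 RPM (SD, n = 5) in WT and 369 ± 115 RPM (n = 4) in R749H; files of 3’ ends near the stop codon do not say how many of these reads came from the plasmid. Of 8 markers of HEK293 cells, KRT18, VIM, KRT8 and INA were above 28 RPM in every library and VIM was lower in R749H (log2 fold change -0.66), whereas PAX2, LHX1 and NEFM were below 5 RPM and NEFL was not listed. Of 8 markers of other cells, MYOD1 measured 4.80 RPM in WT and 0.550 RPM in R749H, APOA1 0.613 and 2.78 RPM, ALB, CD3E and COL1A1 stayed below 1 RPM, and PTPRC, DES and COL1A2 were not listed. The part of these differences in the results was not tested.

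Poly(A) sites of 8 subunits are shown first, to let the sequences be read beside the results. For MED12, MED16, MED14, MED10 and MED25, which had the smallest p in the tests of position, these are the leading site and, where there is one, the site next in use. For MED31, MED29 and MED9, described by library for their level, it is the leading site, which lacks AATAAA. Each line gives the 30 nt that end at the most used isoform of a poly(A) site, on the strand of the gene (GRCh37, the build of hg19), with AATAAA or ATTAAA in capitals where present; positions such as +229 count nt downstream of the stop codon. All lie in the annotated 3’ UTR except MED16 +4794, which lies beyond the annotated gene and opposite CFD.
MED12 +229, chrX:70362268-70362297, plus strand: tgttgcacccaatacacagagcttctttgc
MED12 +1883, chrX:70363922-70363951, plus strand: aaAATAAAatagccctctttgaggcccacg
MED16 +137, chr19:867964-867993, minus strand: ggacaggtccAATAAAcgccctctgcgccc
MED16 +4794, chr19:863307-863336, minus strand: gtaggtgctcAATAAAgaccaaccagatgc
MED14 +279, chrX:40510779-40510808, minus strand: tAATAAAtttaatattctgttttatactat
MED14 +2261, chrX:40508797-40508826, minus strand: aataAATAAAatttatacaaagtttcagag
MED10 +341, chr5:6372275-6372304, minus strand: atgggtaaATTAAAagttttacaacattct
MED10 +576, chr5:6372040-6372069, minus strand: catgcctatAATAAActaagtatgtggctt
MED25 +34, chr19:50340206-50340235, plus strand: ccaacacccAATAAAgttcctttttaacac
MED31 +176, chr17:6547611-6547640, minus strand: attgttaatagactatttctgttaaacctg
MED29 +2862, chr19:39891172-39891201, plus strand: tattgaaaaacATTAAAagtttgagaactt
MED9 +1725, chr17:17396505-17396534, plus strand: ttaaaaggacttatgctctgctgtctcagg

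MED12 placed 81.4% of its pooled reads at +229, where neither AATAAA nor ATTAAA is present, and 7.85% at +1883, which has AATAAA. MED31 and MED9 also lacked both hexamers at their leading site. The windows of MED12 +229 and MED31 hold the variants AATACA and AATAGA, and that of MED9 holds none of the variants searched. Such variants, without AATAAA or ATTAAA, were found at the leading site of 5 of 27 subunits (18.5%), beside 10.7% of all genes. AATAAA was found in the 30 nt (on the RNA strand) of the leading site in 17 of 27 subunits with a site (63.0%), and in 65.0% of the leading sites of all 10686 genes, so the subunits were close to the background. Over all 52 sites of the subunits AATAAA was present at 50% and ATTAAA at 19.2%, against 58.8% and 16.7% of all 15947 sites.

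5 of the 25 tested subunits passed an adjusted p under 0.05 between the cell lines (limma, Benjamini-Hochberg over all genes), which is 20.0% beside a background of 23.9% over all genes. At an unadjusted p under 0.05 there were 9 subunits, beside 37.5% of all genes. MED31 and MED18 were lower in R749H. MED4, MED27 and MED29 were higher. The background was 12.9% for lower genes and 10.9% for higher genes, so the share of subunits called was near that of any gene. The median log2 fold change was -0.27 over the 25 subunits, of which 16 were negative and 9 positive, beside -0.066 over all genes. In these bulk libraries fewer cells of a kind and less RNA per cell cannot be told apart.

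The directions of the smaller differences depended on scaling. With the scaling of the authors alone, in place of TMM, the median of all genes moved by 0.34 to -0.41 and the share of higher genes among all calls moved from 45.8% to 14.1%. Under it 0 subunits were called higher and 6 lower (MED8, MED9, MED18, MED22, MED24 and MED31), beside 32.2% of all genes called, 4.54% higher and 27.7% lower. A change of scaling moves each gene and the median of all genes by nearly the same amount. Differences from that median are therefore kept by construction, for example 0.84 for MED4 and -1.54 for MED31.

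**Figure D1:**
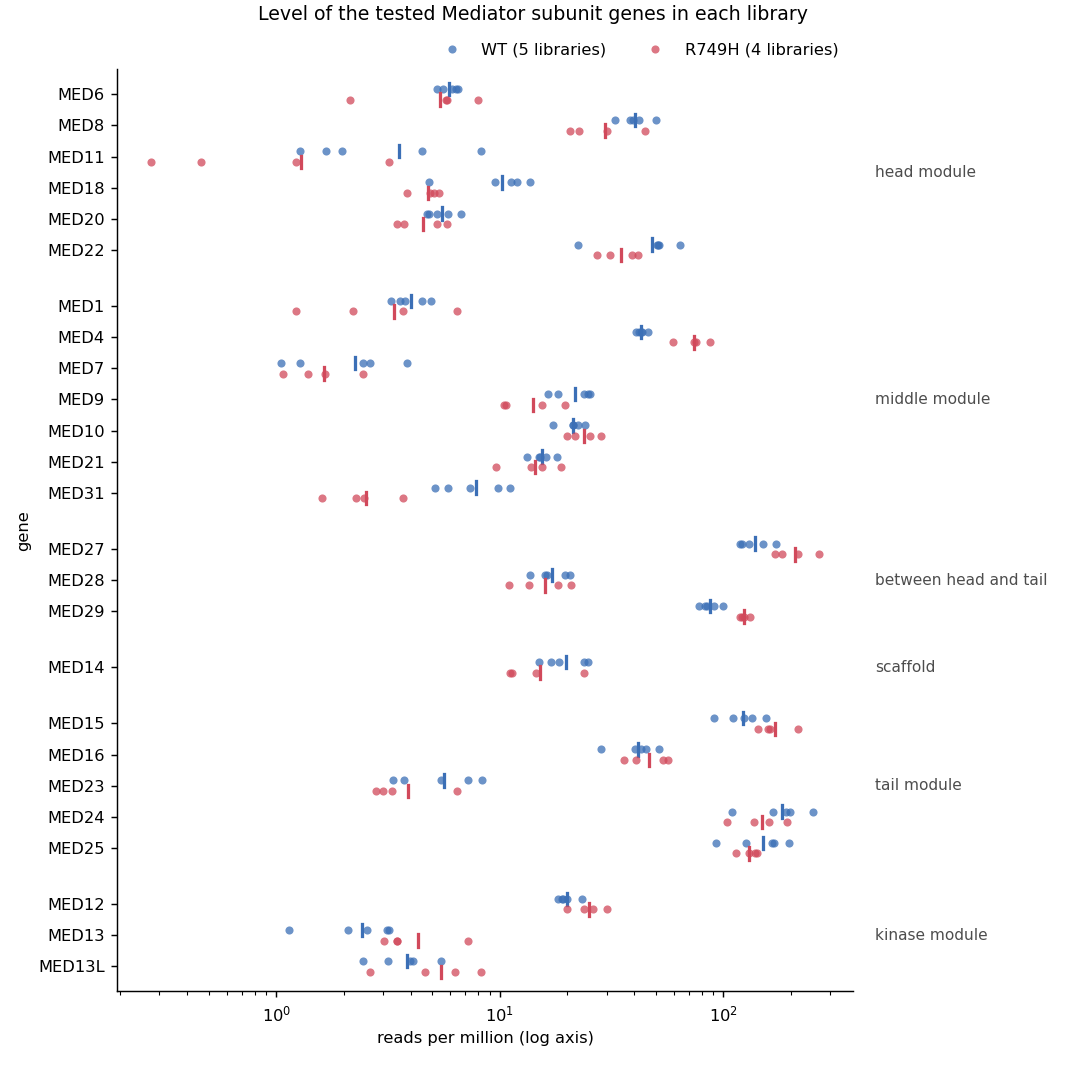
Level of each of the 25 tested subunit genes in every library, in RPM on a log axis, with WT in blue and R749H in red; points are libraries and vertical bars are group means. Under this TMM scaling MED31, MED4 and MED29 are the only tested subunits whose groups do not overlap, and most of the others overlap along much of their range.

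MED31 had the lowest log2 fold change of the called subunits. It is a small, conserved subunit of the middle module that pairs with the N-terminal part of MED7. Its level was 7.38, 11.1, 5.89, 5.11 and 9.82 RPM in WT replicates 1 to 5 and 2.27, 2.47, 1.60 and 3.70 RPM in R749H replicates 1 to 4. Every R749H library lay below every WT library. The means were 7.86 ± 2.55 RPM (SD, n = 5) and 2.51 ± 0.875 RPM (n = 4), with a log2 fold change of -1.61 (SE 0.35, adjusted p = 0.0038 by limma), and the call held in all 18 alternatives run. The depth was low, since only 6 to 56 reads per library fell on the gene, and exons of TXNDC17 on the opposite strand overlap its leading site.

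MED18 forms the movable jaw of the head module together with MED20. Its levels were 4.81, 11.9, 9.49, 11.2 and 13.7 RPM in WT and 5.06, 3.85, 5.34 and 4.85 RPM in R749H. WT replicate 1 lay among the R749H libraries and the other WT libraries lay above them all. MED18 fell from 10.2 ± 3.38 RPM to 4.77 ± 0.650 RPM (log2 fold change -1.01, SE 0.31, adjusted p = 0.026 by limma). The call was lost when WT replicate 2, 4 or 5 or R749H replicate 2 or 4 was left out (adjusted p = 0.0685, 0.0654, 0.0586, 0.0848 and 0.0540), while the fold change stayed between -1.26 and -0.89.

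MED4, a middle module subunit paired with MED9, showed the firmest rise. Its levels were 42.7, 43.3, 40.7, 41.7 and 45.9 RPM in WT, a narrow range, and 59.5, 86.8, 75.3 and 74.2 RPM in R749H. The groups did not overlap. The mean rose 1.71-fold, from 42.9 ± 1.97 RPM to 73.9 ± 11.2 RPM (log2 fold change 0.77, SE 0.17, adjusted p = 0.0043 by limma). It was called without each library in turn, and with the scaling of the authors alone it was 0.43 (adjusted p = 0.0714) and the groups met, at 39.4 to 48.1 RPM in WT and 46.6 to 66.7 RPM in R749H. MED9, its partner, measured 25.3, 24.7, 23.7, 18.2 and 16.5 RPM in WT and 19.5, 10.7, 10.4 and 15.5 RPM in R749H. These groups overlapped through R749H replicate 1, and the difference of -0.65 (SE 0.24) did not pass the test (adjusted p = 0.0590), although it did without WT replicate 5 (-0.75) and without R749H replicate 1 (-0.82).

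MED27 and MED29 belong to the subunits that lie between the head and the tail. MED27 measured 171, 118, 150.1, 121 and 129.9 RPM in WT and 169, 216, 183 and 269 RPM in R749H. WT replicate 1 and R749H replicate 1 met at nearly the same level, and the other R749H libraries were above all WT libraries. MED27 rose from 138 ± 22.4 to 209 ± 44.1 RPM (log2 fold change 0.59, SE 0.18, adjusted p = 0.026 by limma). For MED29 the levels were 99.7, 91.1, 77.9, 84.5 and 82.8 RPM in WT and 118, 121, 123 and 132 RPM in R749H, without overlap. MED29 rose from 87.2 ± 8.46 to 123 ± 5.90 RPM (log2 fold change 0.51, SE 0.16, adjusted p = 0.027 by limma). Both calls were lost with the scaling of the authors alone (0.25, adjusted p = 0.308, and 0.16, adjusted p = 0.468). Both were also lost without WT replicate 2 or 4 or R749H replicate 2 or 4 (adjusted p = 0.0728, 0.0720, 0.0680 and 0.0834 for MED27, and 0.0544, 0.0718, 0.0578 and 0.0593 for MED29), and MED29 without WT replicate 3 (0.0649). Groups without overlap were seen for MED4 and MED29, with R749H above, and for MED31, with R749H below, beside 19.9% of all tested genes (9.72% above and 10.1% below). With the scaling of the authors alone MED4 and MED29 overlapped, and the groups without overlap were those of MED9, MED18, MED20 and MED31, each with R749H below, beside 26.2% of all tested genes (3.68% above and 22.5% below).

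The other subunits are given by module. In the head module all 6 tested genes had a negative log2 fold change under TMM, beside 5142 of all 9494 tested genes. The scaling of the authors moved the values further down, so their negative sign under it is no separate result. MED18 alone passed the test under TMM, and MED8 and MED22 passed it as well with the scaling of the authors. MED8, which tethers the jaw to the head, went from 40.4 to 29.5 RPM (-0.50, adjusted p = 0.119), and was called without R749H replicate 4 (-0.71, adjusted p = 0.0351 by limma). MED22 went from 47.8 to 34.7 RPM (-0.40, adjusted p = 0.279), and was called without WT replicate 1 (-0.66, adjusted p = 0.0202 by limma). Its partner MED11 went from 3.53 to 1.29 RPM (-1.56, SE 0.71, adjusted p = 0.120). MED11 rested on 1 to 12 reads in the R749H libraries and was called without R749H replicate 3 (-2.13, adjusted p = 0.0248). MED6 measured 5.95 and 5.41 RPM (-0.27), a difference that was positive (0.14) without R749H replicate 3, and MED20 5.49 and 4.56 RPM (-0.28). MED17, the largest head subunit, had 66 reads in all libraries and was not tested.

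The summed level of the head module was 92.4 to 141 RPM in WT and 70.0 to 89.4 RPM in R749H, and with the scaling of the authors 102 to 138 and 53.8 to 70.7 RPM. This sum rested mainly on MED22 and MED8, whose own groups overlapped under both scalings. The summed level of the subunits between head and tail was 222 to 292 RPM in WT and 309 to 423 RPM in R749H, and overlapped with the scaling of the authors (209 to 329 and 242 to 307 RPM). It rested mainly on MED27 and MED29. MED28, of the same group, measured 17.2 and 15.9 RPM (-0.14), was positive (0.045) without R749H replicate 3, and MED30 had 59 reads and was not tested. The sum over all 30 subunits was 1023 ± 101 RPM in WT and 1116 ± 89.5 RPM in R749H, with overlapping ranges. With the scaling of the authors the same sum was 953 to 1161 RPM in WT and 841 to 903 RPM in R749H, so the direction of the total turned with the scaling. No background was computed for sums over other groups of genes, and the sums were not tested. For single genes, groups without overlap made up 19.9% of all tested genes under TMM and 26.2% with the scaling of the authors.

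In the middle module, MED4 was called higher and MED31 lower among 7 tested genes, and the other 5 were not called. MED1, which binds nuclear receptors, measured 4.0 and 3.38 RPM (-0.46, adjusted p = 0.463), with R749H libraries from 1.22 to 6.41 RPM and a fold change from -0.82 to -0.066 when 1 library was left out. MED7 measured 2.25 and 1.64 RPM (-0.35) and MED21, with which it forms the hinge of the module, 15.5 and 14.4 RPM (-0.14, and 0.065 without R749H replicate 3). MED10 measured 21.2 and 23.8 RPM (0.16, and -0.18 with the scaling of the authors). MED19 and MED26, the latter a docking site for elongation factors, had 13 and 2 reads in all and were not tested; 3’ ends beyond 5 kb of the stop codon were outside the files. MED14, the backbone, measured 19.8 and 15.2 RPM (-0.42, adjusted p = 0.246).

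The tail module had the highest summed level (503 ± 103 RPM in WT and 499 ± 54.1 RPM in R749H), and none of its 5 genes was called. MED15, which is bound by SREBP activators, went from 123 to 169 RPM (0.47, SE 0.19, adjusted p = 0.0772), and without WT replicate 5 it was called (0.55). MED24 measured 183 and 148 RPM (-0.29, adjusted p = 0.383) and MED25, a target of the viral activator VP16, 149.5 and 131 RPM (-0.15, adjusted p = 0.623). With 1 library left out these ranged from -0.46 to -0.10 and from -0.31 to -0.048. MED16 measured 41.6 and 46.6 RPM (0.16, and -0.18 with the scaling of the authors), and MED23 5.61 and 3.87 RPM (-0.52, adjusted p = 0.326).

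In the kinase module the 3 tested genes had positive fold changes and none was called. MED12, which activates the kinase, measured 19.9 and 25 RPM (0.31, adjusted p = 0.259), and its sign turned with the scaling of the authors (-0.027). MED13, which links the module to the core, measured 2.43 and 4.30 RPM (0.79, SE 0.43, adjusted p = 0.186), and its paralog MED13L 3.83 and 5.46 RPM (0.43, adjusted p = 0.429). MED12L had 20 reads and was not tested. Of their partners only CCNC, the gene of cyclin C, was tested, at 2.53 and 2.18 RPM (-0.17), while CDK8 (means of 0.833 and 1.02 RPM) and CDK19 (0.755 and 0.962 RPM) had too few reads to be tested.

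**Figure D2:**
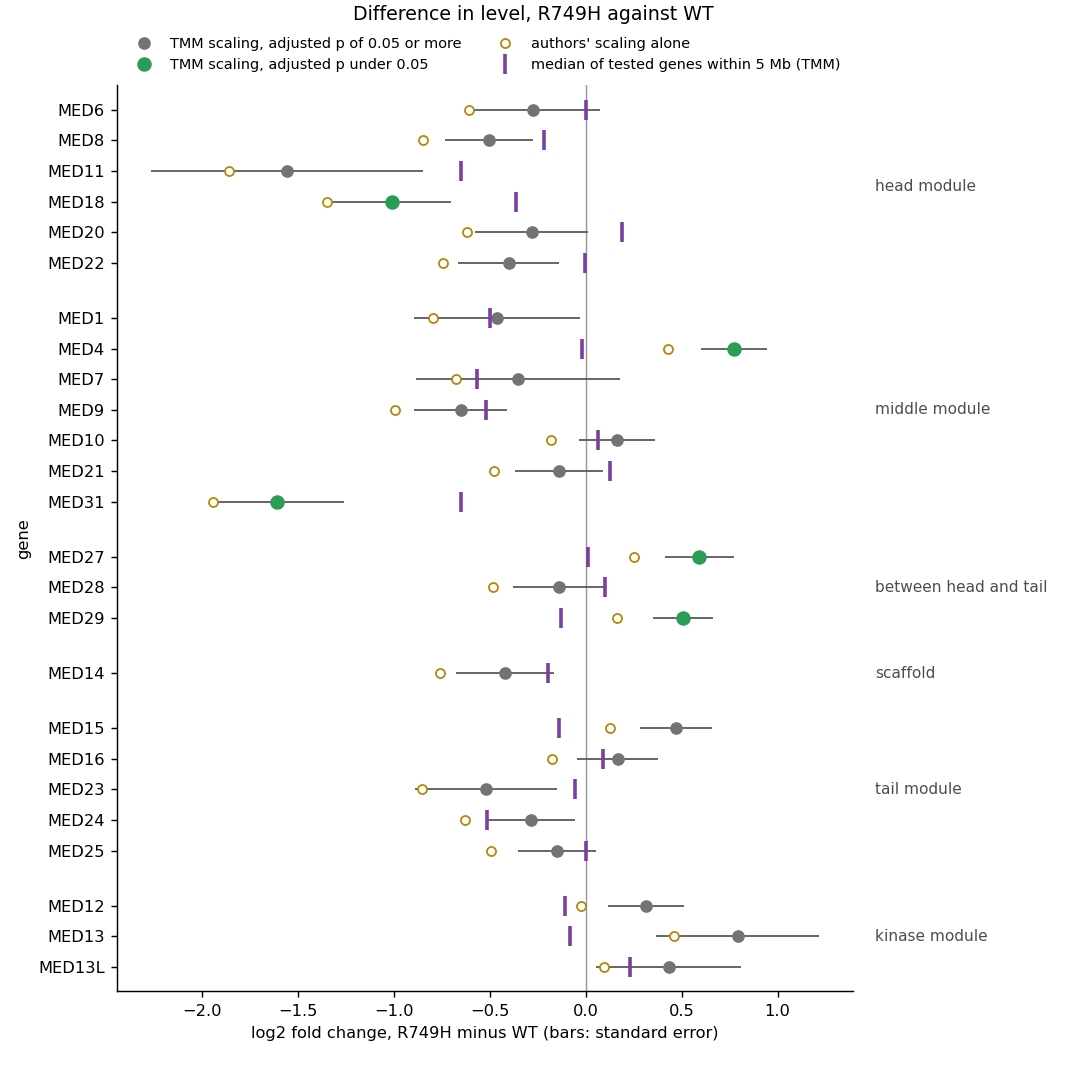
Log2 fold change (R749H minus WT) of the 25 tested subunit genes by module, with standard errors, under TMM (filled, green where the adjusted p is under 0.05) and with the scaling of the authors alone (open); purple marks give the median of the tested genes within 5 Mb. Every open point lies to the left of its filled point, and MED31, MED11 and MED18 are the lowest under both scalings.

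The partners of Mediator at promoters were set beside it from lists chosen with these results known. Of 15 tested genes of the general transcription factors 3 were called higher and 0 lower (20%, beside 23.9% of all genes), namely GTF2A2 (0.66), GTF2F2 (0.76) and ERCC2 (0.61), and the median was 0.37, or 0.030 with the scaling of the authors. Of 10 tested TFIID genes 3 were called higher and 0 lower (30%, beside the same 23.9%, or 10.9% for higher genes alone), namely TAF3 (1.09), TAF6 (0.70) and TAF10 (0.72), with a median of 0.65, or 0.31 with the scaling of the authors. With that scaling none of these 6 genes was called, 0 TFIID genes were called in either direction, and GTF2H5 (-1.09, adjusted p = 0.0262 by limma) and ERCC3 (-0.71, adjusted p = 0.0374) were called lower. The same values were -0.27 and -0.61 for the Mediator subunits.

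Several lower subunits lie where most genes were lower. Chromosome 17 holds 6 of the tested subunits, and 5 of them (MED1, MED9, MED11, MED24 and MED31) had negative fold changes while MED13 was positive. Over the 612 tested genes of chromosome 17 the median log2 fold change was -0.44, with 191 called lower (31.2%, beside 12.9% of all genes) and 51 called higher. Only chromosome 18 had a lower median (-0.49), and chromosome 20 had the highest (0.54), with no tested subunit on either.

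Near MED31, 91 of 112 tested genes within 5 Mb were below 0, with a median of -0.65. MED11 lies in the same stretch, with 102 of 124 neighbours below 0. Their own fold changes were 0.96 and 0.91 below the median of the neighbours, of which 17 lay below MED31 and 18 below MED11. For MED9 the neighbours had a median of -0.52, and MED9 was only 0.13 below it. MED1 and MED24 were 0.036 and 0.23 above theirs (-0.50 and -0.51).

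MED18, on chromosome 1, had 75 of 95 neighbours below 0, with a median of -0.36. It was 0.65 below that median, and 16 of the 95 lay below it. The neighbourhoods of the called higher subunits were close to 0, with medians of -0.018 for MED4, 0.011 for MED27 and -0.13 for MED29. Of the 26 neighbours of MED4, 25 lay below it, while 27 of 118 lay above MED27 and 30 of 159 above MED29. The part of the neighbourhoods in the differences of the subunits was not tested, and a regional difference between the cell lines cannot be told apart from the substitution.

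**Figure D3:**
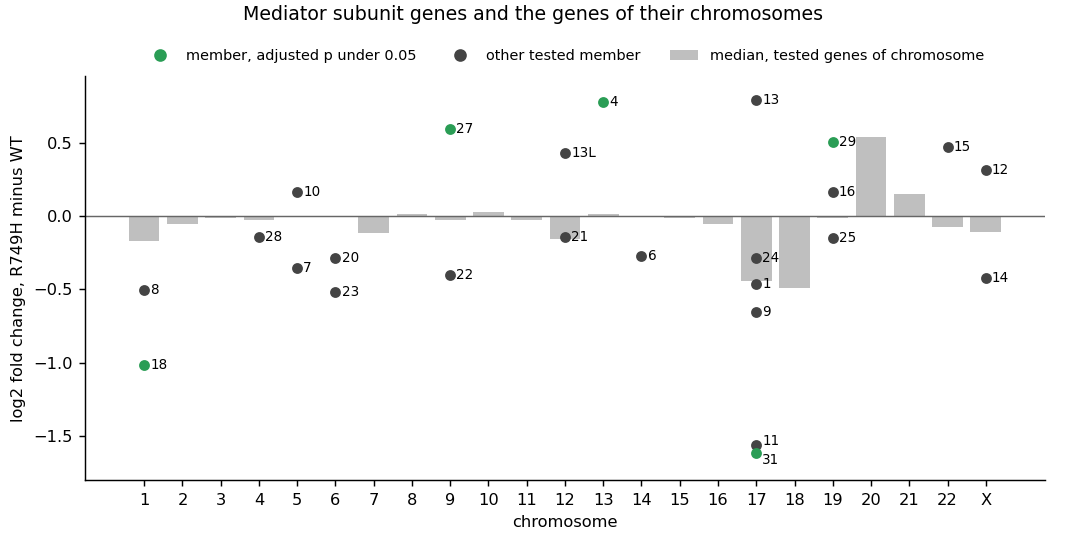
Median log2 fold change (R749H minus WT) of all tested genes on each chromosome (grey bars) and that of each tested subunit (points, labelled by the number after MED; green where the adjusted p is under 0.05). On chromosome 17 the median is -0.44 and 5 of 6 subunits are negative, whereas MED4, MED27, MED29 and MED15 stand above medians close to 0.

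A slow Pol II is known to alter the use of poly(A) sites, and the question of the study was whether such changes run gradually or in jumps along the 3’ UTR. The subunits were compared for 3’ end position in 3 ways. The first was the share of the reads of a gene that lay beyond the median position of its 3’ ends in the pooled libraries. None of 18 tested subunits passed this test and none had an unadjusted p under 0.05, beside 0.0151% of 6616 genes called and 9.3% at an unadjusted p under 0.05 (limma); with edgeR and a term for each library 0 subunits were called as well. The groups overlapped for all 18 subunits, and did not for 4.14% of all genes.

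MED12 had the smallest p. Its share of reads beyond +229 was 30, 14.9, 13.1, 16.8 and 12% in WT and 14.7, 5.48, 11.5 and 10.6% in R749H. WT replicate 1, the shallowest library, was far above the others, and the lowest WT libraries overlapped R749H replicate 1. The mean was 17.4% ± 7.29 (SD, n = 5) in WT and 10.6% ± 3.83 (n = 4) in R749H, a log2 odds difference of -0.81 (SE 0.41, adjusted p = 0.565 by limma).

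MED25 shares its single site between +34 and +36, and its share of reads beyond +34 was 27.0, 24.5, 23.3, 25.6 and 24.2% in WT and 26.2, 26.9, 30.2 and 29.1% in R749H. The groups overlapped through WT replicate 1. The log2 odds difference was 0.24 (SE 0.13, adjusted p = 0.569 by limma). For MED10 the share beyond +576 was 11.1, 8.91, 4.62, 8.40 and 5.47% in WT and 5.6, 6.52, 2.83 and 4.65% in R749H. These ranges overlapped widely, and the difference of -0.63 (SE 0.36, adjusted p = 0.598) turned positive (0.14) when the gene was divided at the midpoint of its isoforms. The direction was therefore not stable for MED10.

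The second comparison was the share of each poly(A) site, with isoforms joined when no more than 24 nt apart. 14 subunits had 1 site and 13 had from 2 to 7, so that 51.9% of the subunits with a site had a single one, beside 66.9% of all genes. MED28 had 7 sites between +148 and +1828 and MED14 had 6 between +250 and +2261. None of the 34 tested sites of subunits was called by limma or had a p under 0.05, beside 0.0385% of 7802 sites called (0.0256% higher and 0.0128% lower) and 10.3% at an unadjusted p under 0.05. No site of a subunit had groups without overlap, beside 4.78% of all sites.

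The upstream site of MED12 (+229) took 65.0, 79.3, 81.1, 78.4 and 82.0% of its reads in WT and 81.6, 89, 88.5 and 85.0% in R749H. R749H replicate 1 lay within the WT range and the other R749H libraries above it. The means were 77.2% ± 6.94 and 86% ± 3.45, a log2 odds difference of 0.84 (SE 0.39, adjusted p = 0.487 by limma). The site at +1883 took 10.6% in WT and 5.35% in R749H, a difference of -0.94 (SE 0.64) that did not pass the test (adjusted p = 0.616).

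The leading site of MED16 (+137) took 89.3, 86.3, 87.3, 85.5 and 80.2% in WT and 86.2, 93.3, 98.5 and 89% in R749H. Only R749H replicates 2 and 3 were above every WT library. The log2 odds difference was 1.20 (SE 0.56, adjusted p = 0.487 by limma), and it was 0.53 without R749H replicate 3. The first site of MED14 (+250) took 6.76, 3.70, 4.46, 3.66 and 10.6% in WT and 6.25, 0, 0 and 4.08% in R749H, on 0 to 15 reads per library. Both zeros came from R749H replicates 2 and 3, with 53 and 89 reads of the gene, and the difference of -1.74 (SE 0.81, and -1.02 without R749H replicate 3) did not pass the test (adjusted p = 0.494 by limma).

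MED29, called higher in level under TMM, was not called at either of its sites. The site at +74 took 28.8% ± 7.19 in WT and 27.4% ± 4.25 in R749H, and the site at +2862 took 59.8% ± 7.66 and 61.1% ± 5.22 (log2 odds differences of -0.083, SE 0.29, and 0.074, SE 0.28). MED8 placed 27.5% and 33.5% of its reads at +317 and 49.6% and 42.3% at +532, and these differences (0.40, SE 0.43, and -0.45, SE 0.39) were about the size of their standard errors. The MED8 site at +317 lies at chr1:43850396 and that at +532 at chr1:43849589. Its +532 is counted from another annotated stop codon, so these positions are not on 1 scale. MED28 placed 16.6% ± 8.03 and 24.3% ± 16.4 of its reads at +208 and 11.9% ± 3.21 and 17.4% ± 8.38 at +1828.

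**Figure D4:**
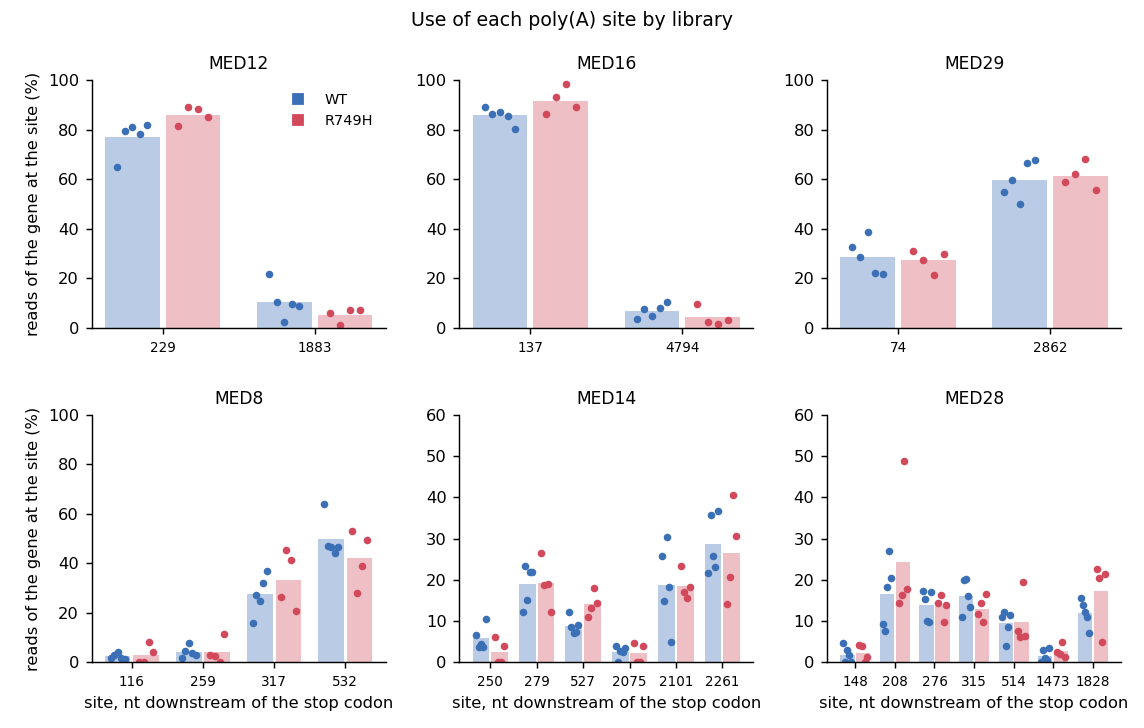
Share of the reads of a gene at each of its poly(A) sites (percent) for 6 subunits, with the position of the site in nt downstream of the stop codon; bars are group means and points are libraries (WT blue, R749H red). The groups overlap at every site shown, including +229 of MED12 and +137 of MED16. For MED8, +532 is counted from another annotated stop codon than its other sites.

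The third comparison was made within clusters, groups of at least 4 major isoforms no more than 4 nt apart. Each cluster was divided at its median position and tested alone across the libraries. The study instead took medians of pooled R749H to WT ratios over isoform pairs of many clusters, and reported a continuous decrease within clusters. That measure was not repeated here, so the counts below do not bear on it. The pooled ratio correlated with position at -0.62 in MED24, 0.63 in MED15 and -0.34 in MED9. 3 subunits had such a cluster with enough reads, and none was called, beside 0 of 983 clusters by limma (background 0%) and 4.88% at an unadjusted p under 0.05. Their groups overlapped, as did those of all but 1.83% of the clusters. The cluster of MED24 holds 8 isoforms from +421 to +431. The share of its reads beyond +427 was 19.5, 17.9, 18.9, 21.1 and 19.5% in WT and 19.1, 20.2, 10.3 and 16.8% in R749H. R749H replicate 3 was the lowest, and the others overlapped the WT range or lay just under it. The log2 odds difference was -0.31 (SE 0.20, adjusted p = 0.868 by limma), and it was -0.063 without R749H replicate 3.

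In the cluster of MED15, from +911 to +916, the share of reads beyond the median position was 39.6, 46.9, 42.2, 42.1 and 42.4% in WT and 38.0, 45.1, 41.1 and 43.9% in R749H. The groups overlapped fully (log2 odds difference -0.038, SE 0.13, adjusted p = 0.945). The cluster of MED9, from +1713 to +1720, gave 39.0, 30.9, 46.8, 27.1 and 26.8% in WT and 22.7, 45.8, 0 and 59.5% in R749H on 18 to 107 reads. These shares spread too widely for a direction to be read (-0.82, SE 0.99, and 0.48 without R749H replicate 3).

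**Figure D5:**
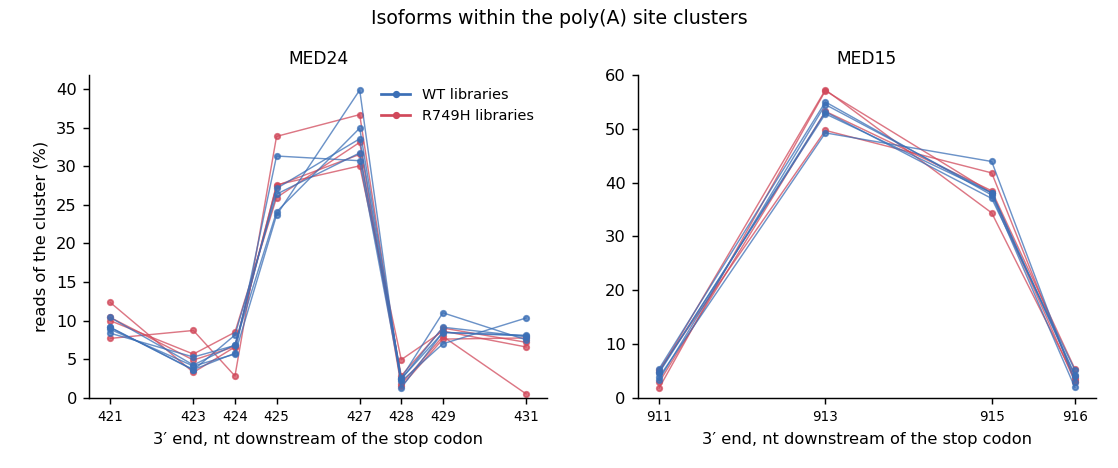
Share of the reads of a cluster at each isoform (percent) against its position in nt downstream of the stop codon, for MED24 and MED15; each line is 1 library (WT blue, R749H red). The libraries of both cell lines overlap at every isoform shown, with peaks at +427 and +425 in MED24 and at +913 and +915 in MED15. In MED24, 1 R749H library is low at +431.

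The mean distance of all 3’ ends from the stop codon was added after the values had been seen. It was shorter in R749H for 10 and longer for 11 of the 21 subunits whose reads averaged 20 or more in a library. MED8 and MED23 are among the 10, at -17.7 and -44.7 nt. Their 3’ ends were counted from more than 1 annotated stop codon, so these values are not distances from a single one. The same can hold for genes of the background with more than 1 stop codon. For 3 subunits the groups did not overlap, beside 5.07% of 7797 genes, and all 3 were shorter in R749H (background 3.14% shorter and 1.92% longer). MED4 ended at 603 to 620 nt in WT and at 561 to 587 nt in R749H, a mean difference of -32.1 nt. MED12 ended at 362 to 721 nt in WT and 293 to 361 nt in R749H, with the nearest libraries less than 1 nt apart, and MED24 at 425.95 to 426.14 nt and 425.63 to 425.91 nt.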

How the data were processed

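The deposited files hold a signal for every 3’ isoform, which is its read number brought by the authors to a total of 7 M in a replicate and 25 M in the pool of a cell line. The authors mapped trimmed reads with non-templated As to hg19 and assigned 3’ ends within 5 kb downstream of CCDS stop codons. For this mapping the methods of the study name bowtie, whereas the labels name Bowtie2 2.3.2. Dividing by the smallest step gave whole reads for 100% of values (within 0.02 units), which were summed by gene. Levels were fitted with limma 3.58.1 (trend, log2 RPM, TMM, prior count 0.5) on genes passing filterByExpr of edgeR 4.0.16. Position was fitted with limma on log2 odds (prior 0.5, features averaging 20 or more reads in a library). Tests were two-sided, with a threshold of 0.05 on adjusted p. The fits were also run on simulated reads with a fixed spread between libraries. That spread was not taken from these data, so the run does not show how the tests perform on them. Major isoforms exceeded 5% of the maximal isoform in both pooled lines. Where the maximal isoform was under 100 in both, a value of at least 5 in each was required instead. Both limits were applied to the pooled signal on the 25 M scale and not to whole reads. Features come from GENCODE on GRCh37.

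The subunits, lists and modules were chosen with earlier results of these data known. Values in each library are given for called members or those with the smallest p (6 for level, 3 for each position test). Alternatives were RLE factors, the scaling of the authors alone, no filter, a prior count of 2, edgeR, DESeq2 1.42.0, isoforms with at least 2 reads, other site definitions, a replicate block and leaving out each library. No 2 libraries of a group agreed within sampling noise. The eNETseq and yeast data are not analysed here.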

Additional observations from a re-analysis of the deposited data

Results flagged for a closer look

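Values that stood far from the other libraries of their group were found in 4 of 68 groups of values examined, and chance gives about 1 in 20. The level of MED13 in R749H replicate 3 was 7.21 RPM, against 3.02 to 3.49 RPM in the other R749H libraries. MED23 reached 6.41 RPM in the same library, against 2.79 to 3.30 RPM. Both genes have few reads, and R749H replicate 3 is the library with few isoforms of a single read. For MED12 the share of reads downstream of the median position was 30% in WT replicate 1, against 12 to 16.8% in the other WT libraries, and its site at +229 took 65.0% there, against 78.4 to 82.0%. These are 2 views of the same 60 reads, from the shallowest library.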

How the results depend on the processing

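5 subunits were called in the levels, and from 2 to 6 were called when 1 library was left out. The count was 2 without WT replicate 2, WT replicate 4 or R749H replicate 2, 3 without R749H replicate 4, 4 without WT replicate 3, and 6 without WT replicate 1, WT replicate 5, R749H replicate 1 or R749H replicate 3. MED31 and MED4 were among those called each time. It was 6 with isoforms of at least 2 reads, which added MED9, and 6 with the scaling of the authors alone, none of them higher. Signs turned with that scaling for MED10 (-0.18), MED12 (-0.027) and MED16 (-0.18). With 1 library left out, MED6 ranged from -0.49 to 0.14, MED21 from -0.26 to 0.065 and MED28 from -0.27 to 0.045, and the cluster differences from -1.59 to 0.48 for MED9 and -0.099 to 0.042 for MED15. The shift of MED10 was 0.14 with division at the midpoint. The cause was not tested. RLE factors, no filter, a prior count of 2, edgeR and DESeq2 each called the same 5 subunits, and 0 subunits were called for position under any alternative.

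The replicate numbers did not pair the samples (correlations of the deviations of same-numbered libraries from -0.070 to 0.051). The replicate block, which needs libraries with a partner and so drops WT replicate 5, called 4 subunits (MED4, MED9, MED15 and MED31) and 0 for the position tests. Depth limits the subunits under about 5 RPM, of which MED11, MED12L, MED19, MED26 and MED30 had 0 or 1 read in some libraries. Only 3’ ends within 5 kb of the stop codon were counted.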
